A study of Mus musculus with 90 samples.

Results

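The genes described here are 41 type I interferon-stimulated genes, chosen by symbol from a set of 16593 gene symbols on a mouse bead array. Of these, 39 had a probe, and each was read from its detected probe with the highest mean level in a tissue. A probe was tested where it was detected on at least 3 of the 18 arrays of a tissue, which left 32 genes in kidney cortex, 33 in kidney medulla, 32 in liver, 36 in lung and 36 in spleen. Of the 41 genes, 32 were tested in all 5 tissues. Another 5 were tested in none, because the probes of Oas1a, Ifit1 and Xaf1 were too dim and Ifi44 and Rnf213 had no probe. A gene that is high in a single group can pass that filter through that group alone, so the counts below describe the genes that passed and not the whole set.

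Balb/c mice received 211At, an alpha-emitting radionuclide, by intravenous injection, and fresh-frozen tissues were taken after 24 h. The groups used here were 1.8 kBq, 14 kBq and 42 kBq, each set against 0 kBq, in kidney cortex, kidney medulla, liver, lung and spleen, with 3 arrays per group. The 0.064 kBq and 0.64 kBq groups were deposited on another scale and are compared only with each other. The labels do not say whether the 3 arrays of a group came from separate animals, so p-values measure only the spread between arrays, nor whether the 5 tissues came from the same animals.

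Type I interferons are cytokines released when cells sense viral or misplaced nucleic acid. They bind the receptor chains Ifnar1 and Ifnar2, whose kinases Jak1 and Tyk2 activate transcription factors such as Stat2. Stat2 acts with Irf9 at the interferon-stimulated response element in the promoters of genes that block viral replication, while interferon gamma acts through another element, the gamma-activated site. Many of these genes also have a basal level in uninfected tissue.

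The response element, searched on both strands as GAAA, any 2 bases and GAAA again, lay in the promoter window (250 bases before to 50 after the start) of 18 of the 33 genes found in the RefSeq promoter table, or 54.5%, against 1079 of all 27025 genes of the table, or 3.99%. The gamma-activated site, searched as TTCNNNGAA, lay in 9 of the 33 genes, or 27.3%, against 2582 of 27025, or 9.55%. The promoters of the 5 genes with the most changes against 0 kBq are shown, chosen by that count alone and not by how firm the changes were. They are the 250 bases before the first start listed, from RefSeq on GRCm38.p6, with matches to either motif in capitals.
Oas1g (chr5:120887614-120887863, minus strand): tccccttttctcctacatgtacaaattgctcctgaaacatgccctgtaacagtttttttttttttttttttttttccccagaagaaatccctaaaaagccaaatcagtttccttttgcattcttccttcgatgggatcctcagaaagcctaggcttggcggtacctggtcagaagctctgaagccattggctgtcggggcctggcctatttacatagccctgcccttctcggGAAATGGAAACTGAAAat
Gbp3 (chr3:142559794-142560043, plus strand): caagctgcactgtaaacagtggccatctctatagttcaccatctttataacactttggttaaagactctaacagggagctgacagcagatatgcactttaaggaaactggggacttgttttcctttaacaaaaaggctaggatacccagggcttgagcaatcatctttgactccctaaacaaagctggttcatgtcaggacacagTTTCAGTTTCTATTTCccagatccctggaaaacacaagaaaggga
Ifit2 (chr19:34550444-34550693, plus strand): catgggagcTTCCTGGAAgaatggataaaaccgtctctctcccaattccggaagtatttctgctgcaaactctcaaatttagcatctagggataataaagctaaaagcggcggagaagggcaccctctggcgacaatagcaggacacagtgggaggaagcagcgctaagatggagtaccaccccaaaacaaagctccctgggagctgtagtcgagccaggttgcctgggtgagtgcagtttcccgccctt
Irf1 (chr11:53769764-53770013, plus strand): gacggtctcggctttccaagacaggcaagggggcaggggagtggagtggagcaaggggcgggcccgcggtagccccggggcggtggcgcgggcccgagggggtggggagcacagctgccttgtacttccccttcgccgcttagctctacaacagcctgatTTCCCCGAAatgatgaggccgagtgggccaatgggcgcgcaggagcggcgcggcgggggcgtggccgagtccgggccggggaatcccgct
Oasl2 (chr5:114896684-114896933, plus strand): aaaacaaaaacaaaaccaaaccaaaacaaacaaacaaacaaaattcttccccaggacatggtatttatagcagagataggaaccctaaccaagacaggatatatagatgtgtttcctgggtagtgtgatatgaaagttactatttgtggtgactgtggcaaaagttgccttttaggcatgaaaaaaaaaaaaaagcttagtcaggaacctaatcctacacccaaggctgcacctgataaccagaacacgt
Oas1g held overlapping response elements that began 18 and 12 bases before the start, and Gbp3 held overlapping ones that began 45 and 39 bases before it. Ifit2 held a gamma-activated site that began 241 bases before the start and Irf1 one that began 90 bases before it. Neither run of letters was in the window shown for Oasl2. A match is a run of letters and not a measured binding site.

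Several arrays stood apart before any interferon gene was read. Array 1 of the 0.64 kBq group differed in all 5 tissues, with Eif2s3y at 7.23 to 9.20 and Xist at 4.57 to 4.86 on the log2 intensity scale, against 4.27 to 4.74 and 6.79 to 9.07 on the other 85 arrays. The mean level of 8 tested exocrine pancreas markers in spleen was 14.15 to 14.22 at 1.8 kBq, 10.08 to 10.16 at 14 kBq and 13.05 to 13.13 at 42 kBq, against 5.17 to 5.22 at 0 kBq, and all 8 were called higher at each activity. In lung, 4 airway epithelium markers averaged 10.47 to 10.67 at 14 kBq and 11.61 to 11.79 at 42 kBq, against 7.80 to 7.90 at 0 kBq. The defining markers of lung, liver and spleen were bright, with alveolar epithelium markers at 13.55 to 13.71 in lung, hepatocyte markers at 12.13 to 12.75 in liver and B cell markers at 9.43 to 9.82 in spleen over the 4 activities. Proximal tubule markers, given below, were no lower at 0 kBq in kidney medulla than in kidney cortex, each tissue being normalised on its own. The part of these markers in the results below was not tested. In bulk tissue, fewer cells of a type and less RNA per cell cannot be told apart.

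In untreated tissue the order of the 5 tissues by basal level differed from gene to gene. With all 90 arrays normalised together, Rsad2, which makes an antiviral nucleotide, stood at 13.31 ± 0.04 in spleen, 9.70 ± 0.22 in kidney medulla, 9.30 ± 0.30 in lung, 9.23 ± 0.07 in kidney cortex and 8.26 ± 0.12 in liver (SD, n = 3). Isg15, a ubiquitin-like modifier, stood at 11.25 ± 0.09 in spleen, 8.10 ± 0.08 in liver, 7.45 ± 0.07 in lung, 7.16 ± 0.03 in kidney medulla and 6.81 ± 0.40 in kidney cortex. Neighbours in these orders below spleen often lay within their spread, as lung and kidney cortex did for Rsad2. Lung was highest for Irf1, at 12.87 ± 0.04, against 12.17 ± 0.08 in spleen, 11.02 ± 0.11 in liver, 10.52 ± 0.06 in kidney medulla and 10.30 ± 0.11 in kidney cortex.

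Against 0 kBq, few single genes changed. A gene was called where limma's moderated test gave an adjusted p under 0.05 over all probes of the tissue. In spleen at 1.8 kBq, 4 of 36 genes fell and none rose, where 1.37% of all probes were called lower and 1.44% higher. The median change of the 36 genes was -0.33 on the log2 scale, against -0.03 over all probes, and 19 of them lay below every 0 kBq array, where 14.6% of all probes did. In kidney cortex at 42 kBq, 2 of 32 genes rose and none fell, where 1.36% of all probes were called higher and 0.339% lower. The median there was 0.39, against -0.02 over all probes, and 16 of the 32 lay above every 0 kBq array, where 11.2% of all probes did.

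In spleen at 1.8 kBq the median of each role was below 0. It was -0.59 for the 3 genes of ISG15 conjugation, -0.52 for 5 synthetase genes, -0.48 for 2 IFIT genes, -0.36 for 4 transcription factors, -0.30 for 5 sensors, -0.25 for 13 antiviral effectors and -0.13 for 4 GTPases, with at most 1 called gene in each. In kidney cortex at 42 kBq the median was 0.90 for 2 IFIT genes, 0.75 for 4 GTPases, 0.57 for the 3 ISG15 conjugation genes, 0.42 for 4 transcription factors, 0.30 for 4 synthetase genes, 0.27 for 10 effectors and 0.19 for 5 sensors. The 2 called genes there were Ifit2 and Mx2.

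Markers of other cells moved with both comparisons. In spleen, plasmacytoid dendritic cell markers (5 of 6 tested, 1 called higher) averaged 9.49 to 9.70 at 1.8 kBq, against 8.55 to 8.76 at 0 kBq, and neutrophil markers (9 of 9, none called) 12.71 to 12.83, against 13.04 to 13.16. A mean of so few markers can rest on 1 of them. The 6 plasmacytoid markers listed were Siglech, Ccr9, Ly6d, Klk1, Tcf4 and Spib. With 1 of the 5 called, their mean does not show a shift of that cell type. The exocrine pancreas markers of spleen, given above, were also higher at 1.8 kBq. In kidney cortex, loop and collecting duct markers (4 of 5, 1 called higher) averaged 11.53 to 11.68 at 42 kBq, against 11.06 to 11.08 at 0 kBq, and proximal tubule markers (5 of 5, 1 called higher) 12.11 to 12.34, against 11.57 to 11.83. Their part was not tested.

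Liver at 42 kBq had 3 of 32 genes higher and none lower, where 1.76% of all probes were called higher and 1.78% lower, with a median of 0.14. Kidney medulla at 1.8 kBq had 6 of 33 genes higher and 1 lower, but 13.4% of all probes were called higher there and 13.3% lower. The count of higher genes is thus close to the background, and that of lower genes is under it. In that comparison 27 of the 33 genes lay above 0, where 50.6% of all probes did. Its median was 0.18, against 0.01 over all probes. At 42 kBq in kidney medulla 1 of 33 genes rose, where 2.06% of all probes were higher and 2.99% lower, with a median of 0.23. At 14 kBq the genes called lower were 1 of 36 in lung, where 0.181% of all probes were lower and 0.249% higher. They were 2 of 36 in spleen, where 1.4% were lower and 1.89% higher, and 1 of 33 in kidney medulla, where 0.222% were lower and 0.216% higher. No gene was called at 14 kBq in liver, where 0.709% of all probes were called higher and 0.592% lower, or in kidney cortex, where 0.0929% and 0.0266% were. By unadjusted p under 0.05 there were 5 genes in liver and 4 in kidney cortex. The other comparisons held 2 genes lower in liver at 1.8 kBq, where 1.95% of all probes were lower and 1.97% higher, and 1 higher in kidney cortex at 1.8 kBq, where 1.5% were higher and 0.498% lower. None was called in lung at 1.8 kBq, where 0.193% of all probes were higher and 0.181% lower, in lung at 42 kBq (0.611% and 0.0685%) or in spleen at 42 kBq (0.451% and 0.0784%). By limma, 1, 3 and 4 genes had an unadjusted p under 0.05 in these comparisons. The share of all probes at an unadjusted p under 0.05 was not taken, here or for liver and kidney cortex above. Those counts thus have no background to be set against. The 3 comparisons within a tissue share their 0 kBq arrays.

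**Figure D1:**
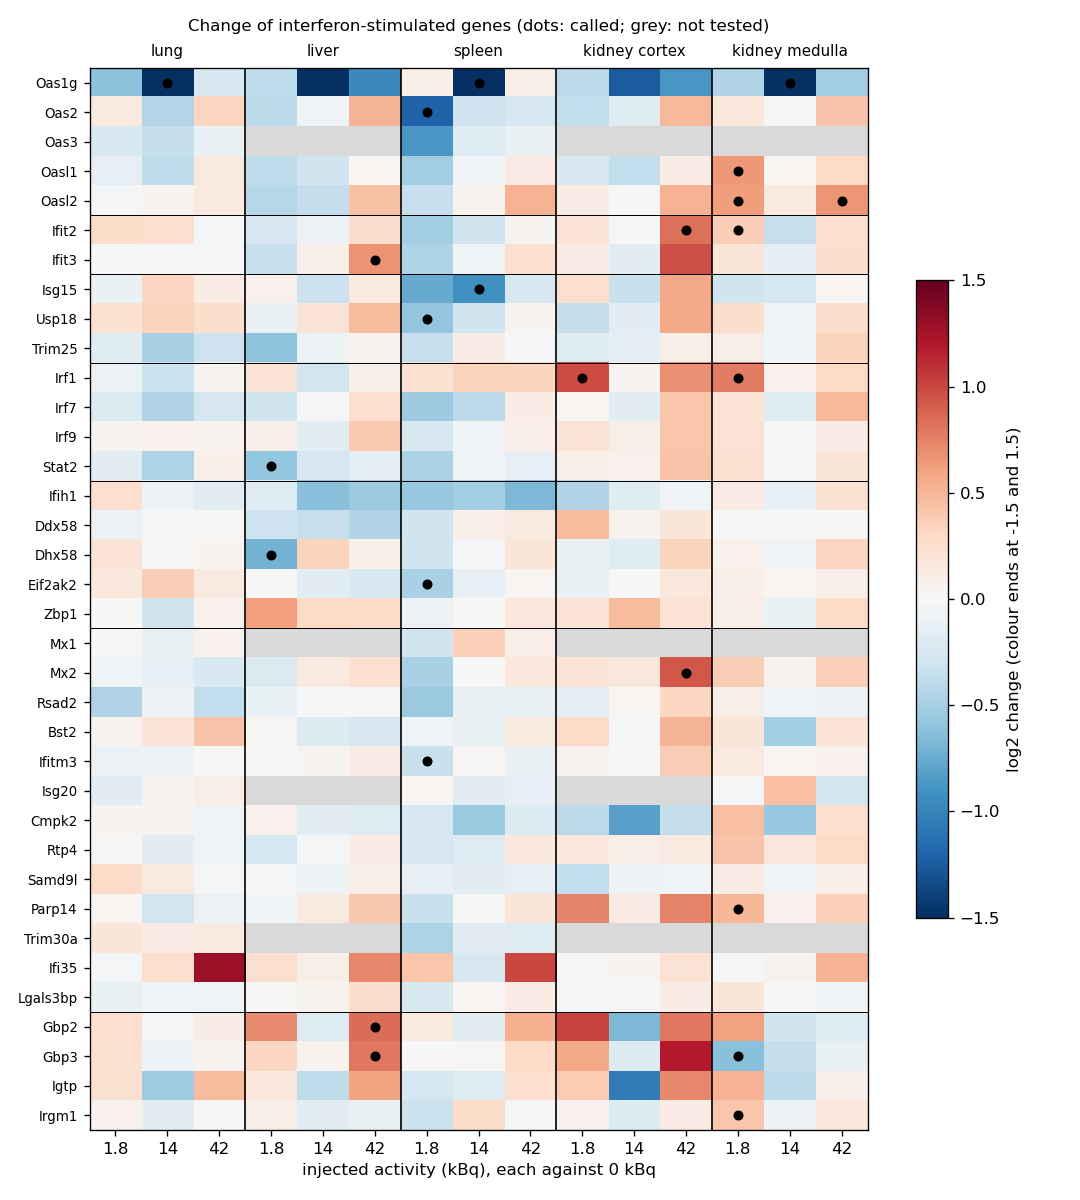
Log2 change of each tested interferon-stimulated gene (rows, grouped by role) at 1.8, 14 and 42 kBq against 0 kBq in each tissue (columns), with dots for the 24 called changes and grey where a gene was not tested. Spleen at 1.8 kBq is mostly blue (30 of 36 genes below 0) and kidney cortex at 42 kBq mostly red (28 of 32 above 0).

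The 0.064 and 0.64 kBq arrays entered these comparisons through the normalisation, the probe filter and the estimate of spread, and leaving them out raised the calls over the 15 comparisons to 86 (47 higher and 39 lower), against 24 with them (13 higher and 11 lower). Spleen at 1.8 kBq then had 13 genes lower and none higher, where 5.36% of all probes were lower and 3.51% higher. Kidney cortex at 42 kBq had 11 higher and 1 lower, where 3.75% of all probes were higher and 1.84% lower, and liver at 42 kBq had 10 higher and 1 lower, where 6.69% and 5.83% were.

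The mean level over the tested genes was lowest at 14 kBq among the 4 activities in lung, liver, kidney cortex and kidney medulla. In lung the mean per array was 8.33 to 8.35 at 14 kBq, against 8.47 to 8.54 at 0 kBq. In kidney cortex it was 7.76 to 7.81 at 14 kBq, against 7.93 to 7.95 at 0 kBq, and in kidney medulla 7.91 to 7.94, against 8.04 to 8.07. The same held in liver, at 7.79 to 7.81 against 7.93 to 7.95, and spleen at 14 kBq lay at 8.57 to 8.64, against 8.79 to 8.82. All 5 tissues thus had every 14 kBq array below every 0 kBq array. Leaving out Oas1g, described next, left every 14 kBq array below every 0 kBq array, for example at 8.43 to 8.46 at 14 kBq against 8.50 to 8.57 at 0 kBq in lung. In liver the 14 kBq arrays then stood at 7.89 to 7.90, within the 7.89 to 7.91 of the 1.8 kBq arrays. These means are a description with no test. T and NK cell markers averaged 4.79 to 4.99 at 14 kBq, against 5.42 to 5.47 at 0 kBq, in kidney cortex (4 of 7 tested) and 4.94 to 5.17, against 5.62 to 5.89, in kidney medulla (3 of 7 tested). In spleen (5 of 7) they averaged 7.37 to 7.42, against 7.33 to 7.46. No T or NK marker was called in these comparisons. The kidney means of these markers at 14 kBq lay near the lowest level at which probes were detected on those arrays. That level was 5.04 to 5.09 in kidney cortex and 5.04 to 5.07 in kidney medulla, so the size of those differences is uncertain. The mean of the neutrophil markers was also lower on every 14 kBq array than on every 0 kBq array in each tissue. They averaged 8.79 to 8.94 at 14 kBq, against 9.98 to 10.09 at 0 kBq, in lung (9 of 9 tested, 3 called lower), 6.73 to 6.84, against 7.64 to 7.87, in liver (9 of 9) and 12.58 to 12.68, against 13.04 to 13.16, in spleen (9 of 9). In kidney cortex (6 of 9) they averaged 5.56 to 5.70, against 6.15 to 6.19, and in kidney medulla (5 of 9) 5.66 to 5.95, against 6.07 to 6.17, with none called outside lung. Macrophage and monocyte markers did so in 4 tissues, for example at 7.18 to 7.31 against 7.45 to 7.59 in liver (6 of 11 tested), and not in spleen. The part of these markers was not tested.

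**Figure D2:**
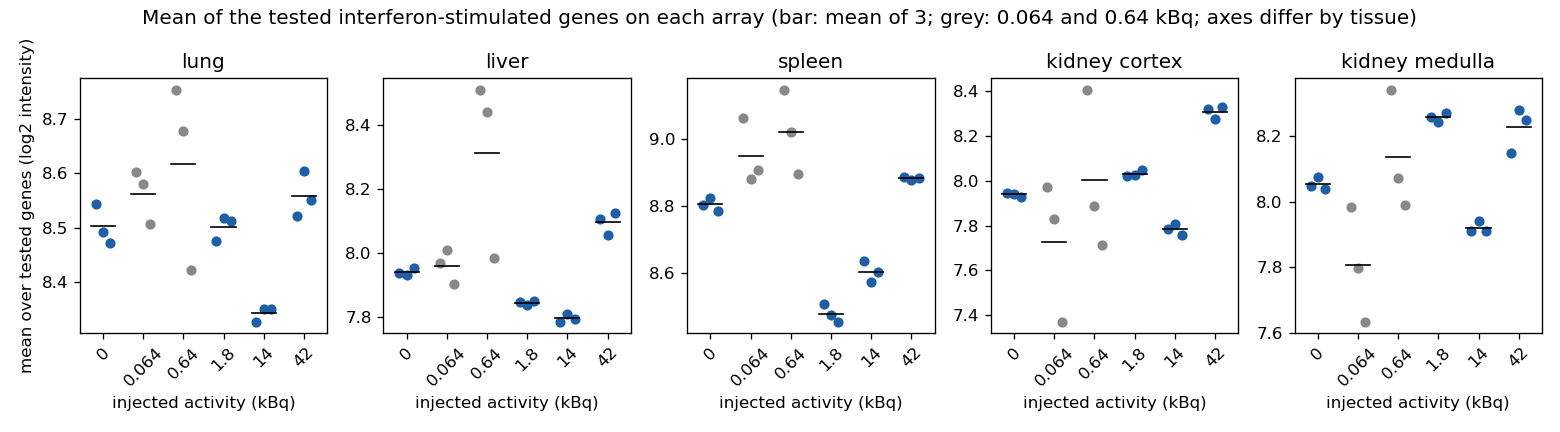
Mean log2 intensity of the tested interferon-stimulated genes on each array (points) with the group mean (bar) by injected activity in kBq, with 0.064 and 0.64 kBq in grey and a separate axis for each tissue. The 14 kBq arrays lie below the 0 kBq arrays in every tissue, and in spleen the 1.8 kBq arrays, at 8.46 to 8.51, lie lower still.

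Oas1g had the largest called changes of the set at 14 kBq. It is a member of the 2'-5' oligoadenylate synthetase family, which senses double-stranded RNA and activates RNase L. Its brightest probe was detected on all 15 arrays at 0 kBq, 15 of 15 at 1.8 kBq, 1 of 15 at 14 kBq and 14 of 15 at 42 kBq over the 5 tissues. In lung it read 4.63, 4.96 and 4.63 at 14 kBq, against 7.67, 7.70 and 7.64 at 0 kBq. In spleen it read 4.83, 4.44 and 4.77 at 14 kBq, against 7.73, 7.82 and 8.05 at 0 kBq. In kidney medulla it read 4.63, 4.47 and 4.67 at 14 kBq, against 6.43, 6.64 and 6.24 at 0 kBq. The groups did not overlap in any of these tissues, and the probe was not well above background on any 14 kBq array there. The level was at least 6.25-fold lower in lung (adjusted p = 0.0174), at least 7.17-fold lower in spleen (0.00794) and at least 2.61-fold lower in kidney medulla (0.0014) by limma. A bound compares the bright group's mean with the lowest level at which probes were detected.

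In liver Oas1g read 4.71, 5.08 and 4.55 at 14 kBq, against 6.81, 6.41 and 6.40 at 0 kBq, with 1 of 3 arrays detected at 14 kBq. In kidney cortex it read 4.95, 4.87 and 4.82 at 14 kBq, against 6.03, 6.13 and 6.21 at 0 kBq. The groups did not overlap in either tissue, but neither change passed, with limma's adjusted p of 0.0949 in liver and 0.334 in kidney cortex, where the level was at least 2.09-fold lower. The estimate of spread includes the 0.64 kBq group, where array 1 read 8.85 in lung against 5.09 and 4.89 on arrays 2 and 3. At 42 kBq Oas1g read 7.64, 7.13 and 7.53 in lung and 7.94, 8.01 and 7.94 in spleen, changes of -0.24 and 0.10 that were not called. It read 4.56, 5.36 and 5.81 in kidney cortex, below all 0 kBq arrays. In kidney medulla its change at 42 kBq was -0.52, the lowest of the tested genes there and not called. Without the 0.064 and 0.64 kBq arrays, the adjusted p by limma was 6.5e-07 in liver, 0.00839 in kidney cortex and 6.75e-11 in lung. The call in lung was lost in each fit that left out 1 of the compared arrays, other than 0 kBq array 1, with adjusted p between 0.0445 and 0.116 over the 6 fits. It was also lost with the authors' processed values (adjusted p = 0.178), and without background correction, without the intensity trend or by the mean of its tested probes, with a lower adjusted p.

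A second Oas1g probe was detected on 8 of 15 arrays at 0 kBq and on 0 of 15 at 14 kBq, and the other 2 probes were detected on none of the 30 arrays of those activities. Detection on all arrays at 0, 1.8 and 42 kBq and on none at 14 kBq was met in all 5 tissues by 0 of 25697 probes, and in any 1 tissue by 14. Oas1g belongs to a cluster of close paralogs, and whether its probe also binds their transcripts was not tested.

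**Figure D3:**
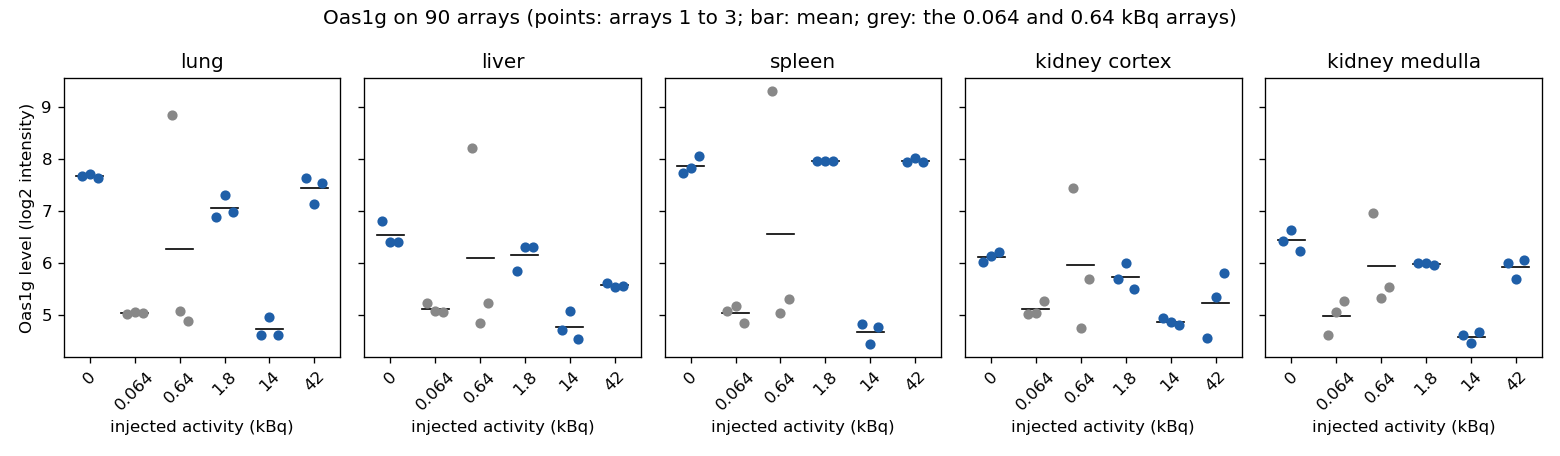
Oas1g level (log2 intensity) on each of the 90 arrays by tissue and injected activity in kBq, with points for arrays 1 to 3, bars for group means and grey for 0.064 and 0.64 kBq. The 15 arrays at 14 kBq lie between 4.44 and 5.08 and the 15 at 0.064 kBq between 4.62 and 5.28. Array 1 at 0.64 kBq lies far above its group in every tissue.

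Among the other synthetases, Oas2 fell in spleen at 1.8 kBq, to 7.14, 7.45 and 7.50, against 8.50, 8.66 and 8.57 at 0 kBq. The groups did not overlap, and the change of -1.21 ± 0.13 (adjusted p = 2.04e-06, limma) stayed called in all 6 fits that left out 1 array. The synthetase-like genes rose in kidney medulla at 1.8 kBq. Oasl2 read 9.52, 9.34 and 9.43 at 1.8 kBq, against 8.74, 8.81 and 8.87 at 0 kBq, a change of 0.62 (adjusted p = 0.00148). Oasl1 changed by 0.65 there (0.0165), a call lost without 1.8 kBq array 3 (0.102). Oasl2 was also higher at 42 kBq, at 9.31, 9.54 and 9.55, a change of 0.66 (0.00586). By the mean of all tested probes of each gene these calls were lost, with an adjusted p of 0.532 for Oasl2 at 1.8 kBq, 0.0873 for Oasl2 at 42 kBq and 0.158 for Oasl1.

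The IFIT genes encode proteins that bind foreign RNA. Ifit3 rose in liver at 42 kBq, to 8.91, 9.0 and 9.02, against 8.41, 8.21 and 8.29 at 0 kBq, a change of 0.67 ± 0.17 (adjusted p = 0.0329). In kidney cortex at 42 kBq Ifit3 read 10.24, 10.43 and 10.26, against 9.20, 9.23 and 9.59 at 0 kBq, above all control arrays but with an adjusted p of 0.059 (limma, change 0.97). Ifit2 rose in the same comparison, at 8.59, 7.75 and 8.22, against 7.63, 7.35 and 7.09 (change 0.83, adjusted p = 0.0306). Its call was lost without 42 kBq array 1 or 3 or without 0 kBq array 2 or 3, with adjusted p up to 0.181. Ifit2 also changed by 0.37 in kidney medulla at 1.8 kBq, where the groups overlapped and the call was lost without 1.8 kBq array 2 or 3 or 0 kBq array 2 or 3 (up to 0.141). In lung, Ifit3 moved by at most 0.02 in size at any of the 3 activities.

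Of the genes of ISG15 conjugation, Isg15 fell in spleen at 14 kBq, reading 10.06, 10.05 and 10.03 at 14 kBq, against 10.88 to 11.03 at 0 kBq. At 1.8 kBq it read 10.30, 10.08 and 10.27, also below all control arrays, with an adjusted p of 0.057 (limma). The change of -0.92 ± 0.21 at 14 kBq had an adjusted p of 0.0186, and the call was lost in each of the 6 fits that left out 1 array (0.0551 to 0.0752). Usp18, which removes Isg15 from proteins and limits receptor signalling, fell in spleen at 1.8 kBq, reading 9.30, 9.61 and 9.57, against 10.02, 10.27 and 9.95 (change -0.59, adjusted p = 0.00511). Without 0 kBq array 2 its adjusted p was 0.0537.

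**Figure D4:**
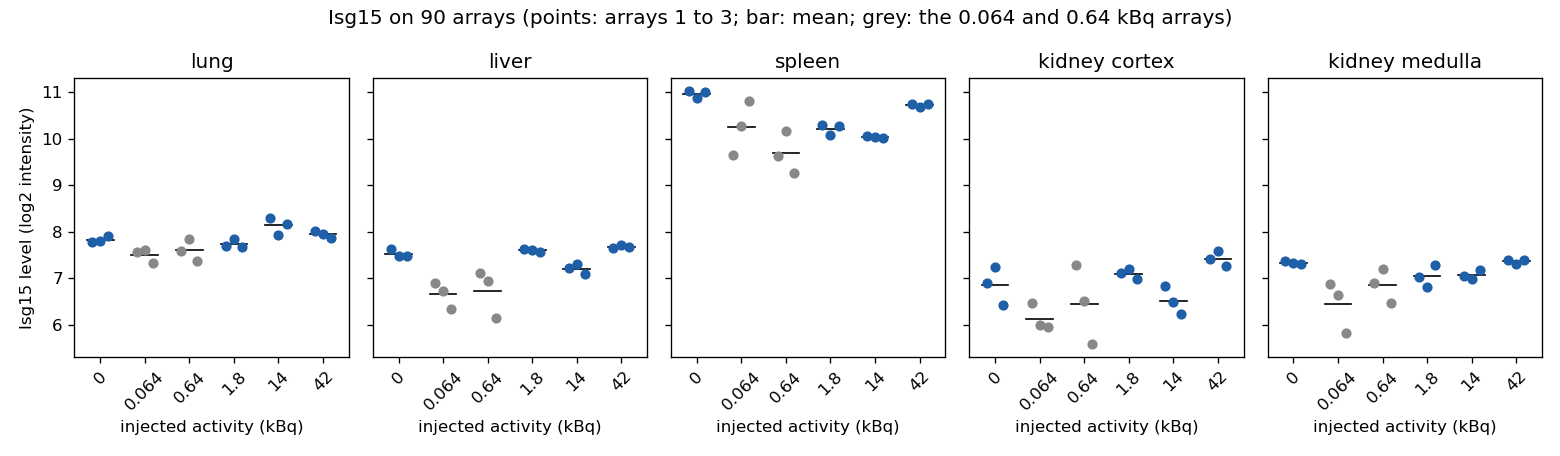
Isg15 level (log2 intensity) on each of the 90 arrays by tissue and injected activity in kBq, with points for arrays 1 to 3, bars for group means and grey for 0.064 and 0.64 kBq. In spleen the 14 kBq arrays lie between 10.03 and 10.06, below the 0 kBq arrays, while in lung the 14 kBq arrays, at 7.94 to 8.31, lie above the 0 kBq arrays.

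Among the transcription factors, Irf1, which interferon gamma induces strongly, rose in both kidney regions at 1.8 kBq. In kidney medulla it read 11.44, 11.37 and 11.47 at 1.8 kBq, against 10.63, 10.60 and 10.70 at 0 kBq, a change of 0.78 (adjusted p = 0.000201), which was lost by the mean of its tested probes (0.37, adjusted p = 0.19). In kidney cortex it read 11.54, 11.55 and 11.18, against 10.35, 10.57 and 10.42, a change of 0.98 ± 0.25 (0.0484) that was lost in all 6 fits that left out 1 array. Stat2 fell in liver at 1.8 kBq, to 7.34, 7.52 and 7.24, against 7.84, 7.93 and 8.05 (change -0.58, adjusted p = 0.0262), a call lost without any 1 compared array other than 1.8 kBq array 2 (up to 0.12). Irf7, the factor that amplifies interferon production, was not called in any comparison with 0 kBq, with changes from -0.54 in spleen at 1.8 kBq to 0.49 in kidney medulla at 42 kBq.

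Of the sensors, Dhx58 fell in liver at 1.8 kBq, reading 6.60, 6.37 and 6.49, against 7.13, 7.28 and 7.14 (change -0.70, adjusted p = 0.0126), a call lost without array 2 of either group (up to 0.0708). Eif2ak2, the kinase that halts translation on sensing double-stranded RNA, fell by 0.49 on the log2 scale in spleen at 1.8 kBq (0.0191), a call lost without 1.8 kBq array 1 or 0 kBq array 2 or 3 (up to 0.114). Of the antiviral effectors, Mx2, a dynamin-like GTPase, rose in kidney cortex at 42 kBq, to 6.39, 6.32 and 6.37, against 5.33, 5.52 and 5.42 (change 0.94, 0.049). Ifitm3, which blocks viral entry, changed by -0.33 in spleen at 1.8 kBq (0.0491), and Parp14 by 0.50 in kidney medulla at 1.8 kBq (0.0317). The calls of Mx2 and Ifitm3 were lost in all 6 fits that left out 1 array, and that of Parp14 in each but the one without 0 kBq array 3 (up to 0.107). Rsad2 was not called against 0 kBq in any tissue, and in spleen at 1.8 kBq its change was -0.56 (adjusted p = 0.153, limma).

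Of the 4 interferon-induced GTPases, which act on vacuoles that hold pathogens, Gbp2 and Gbp3 rose in liver at 42 kBq, while Igtp (0.60) and Irgm1 (-0.11) did not pass. Gbp3 in liver read 9.12, 9.21 and 9.30 at 42 kBq, against 8.40, 8.43 and 8.43 at 0 kBq, a 1.73-fold rise (adjusted p = 0.0177). Gbp2 read 9.02, 8.97 and 8.88, against 8.14, 8.05 and 8.16, a 1.79-fold rise (0.032). Both groups stood clear of their controls. In kidney medulla at 1.8 kBq Gbp3 fell, to 9.88, 10.01 and 9.75, against 10.59, 10.39 and 10.56 (change -0.63, 0.0016), while Irgm1 rose by 0.42 (0.00218, and 0.0552 by the mean of its tested probes). In liver at 42 kBq the neutrophil markers, 9 of 9 tested, averaged 8.87 to 8.94, against 7.64 to 7.87 at 0 kBq, with 3 called higher, and their part was not tested. The calls of Gbp2 and Ifit3 in liver were lost in all 6 fits that left out 1 array, and that of Gbp3 in each but the one without 42 kBq array 1 (up to 0.0855).

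Set against 14 kBq, the genes were higher at 42 kBq in all 5 tissues by their median. This comparison shares its 14 kBq arrays with that of 14 kBq against 0 kBq, and the 0 kBq arrays entered its normalisation and estimate of spread. In kidney cortex 31 of 32 genes lay above 0, with a median of 0.47 against -0.02 over all probes, and 21 lay above every 14 kBq array, where 7.91% of all probes did. The called genes were 2 of 32 in kidney cortex, where 0.438% of all probes were called higher. They were 4 of 33 in kidney medulla (0.843%), 2 of 36 in lung (0.523%), 2 of 32 in liver (0.263%) and 1 of 36 in spleen (0.457%). None was called lower, where 0.0133% of all probes were in kidney cortex, 1.67% in kidney medulla, 0.0997% in lung, 0.19% in liver and 0.255% in spleen. The medians were 0.30, 0.10, 0.24 and 0.16 in those 4 tissues, with those of all probes no further than 0.02 from 0.

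In kidney cortex, Igtp, an immunity-related GTPase, read 10.59, 10.74 and 10.87 at 42 kBq, against 8.93, 9.08 and 8.91 at 14 kBq, a 3.38-fold rise (adjusted p = 0.0315). Ifit3 read 10.24, 10.43 and 10.26, against 9.06, 9.28 and 9.16, a 2.20-fold rise (0.0487). Both calls were lost in all 6 fits that left out 1 array. In lung, Oas2 read 8.41, 8.39 and 8.32 at 42 kBq, against 7.67, 7.63 and 7.55 at 14 kBq, a 1.69-fold rise (0.0032) that stayed called in all 6. In kidney medulla, Cmpk2, a mitochondrial nucleotide kinase, changed by 0.82 and Ifit2 by 0.59, and both calls were lost without array 2 or 3 at 42 kBq or array 1 or 2 at 14 kBq (up to 0.212). The mean of the neutrophil markers was higher on every 42 kBq array than on every 14 kBq array in each tissue. They averaged 10.40 to 10.53 at 42 kBq in lung (4 of 9 called higher), 8.87 to 8.94 in liver (8 of 9), 13.06 to 13.11 in spleen (none of 9), 5.77 to 6.0 in kidney cortex (none of 6) and 6.51 to 6.62 in kidney medulla (3 of 5), against the 14 kBq values given above. In lung the 4 cardiac muscle markers, all called higher, averaged 11.30 to 11.34 at 42 kBq, against 8.98 to 9.03 at 14 kBq. The part of these markers was not tested. Without the 0.064 and 0.64 kBq arrays the genes called higher were 12 in kidney cortex, 8 in kidney medulla, 7 in lung, 10 in liver and 7 in spleen, where 1.94%, 2.73%, 2.72%, 2.13% and 1.78% of all probes were.

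**Figure D5:**
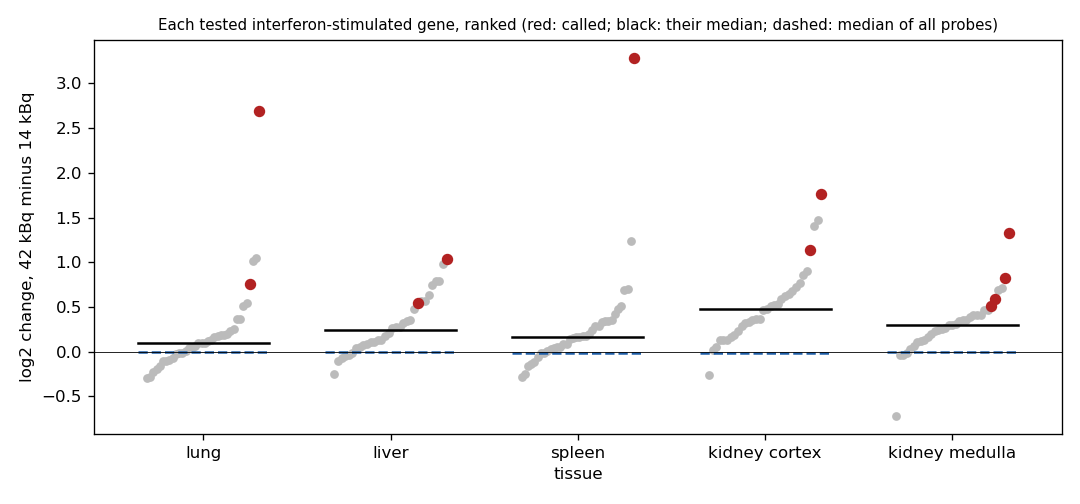
Log2 change of each tested interferon-stimulated gene at 42 kBq minus 14 kBq, ranked within each tissue, with called genes in red, the median of the genes as a black line and that of all probes dashed. The black lines lie at 0.10 to 0.47. Oas1g was not detected at 14 kBq outside liver, so its points there are fitted changes that rest on undetected readings, and their size is uncertain.

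Between 14 kBq and 1.8 kBq, kidney medulla had 9 of 33 genes lower and none higher, where 10.7% of all probes were called lower and 11.8% higher. Oas1g was among them, at least 1.91-fold lower, and Cmpk2 read 7.08, 6.99 and 7.64 at 14 kBq, against 7.84, 8.19 and 8.73 at 1.8 kBq. Spleen had 3 of 36 genes higher and 1 lower, where 1.14% and 1.12% of all probes were, and 15 genes lay above every 1.8 kBq array, where 13.1% of all probes did. Oas2 read 8.16, 8.45 and 8.20 at 14 kBq in spleen, against 7.14, 7.45 and 7.50 at 1.8 kBq (change 0.91, adjusted p = 0.000161). The pancreas markers differed between these 2 spleen groups too, with all 8 called lower at 14 kBq, and their part was not tested. In kidney cortex Gbp2 read 7.98, 8.24 and 8.36 at 14 kBq, against 9.30, 10.06 and 10.28 at 1.8 kBq, a 3.21-fold fall (0.0101) that was lost without 14 kBq array 1 or 1.8 kBq array 3 (up to 0.0575). It was 1 of 3 genes called lower of 32 there, where 2.32% of all probes were called lower and 1.06% higher. Lung had 2 of 36 genes lower, where 0.685% of all probes were lower and 0.723% higher. Liver had 1 of 32 higher and 2 lower, where 3.53% and 2.37% of all probes were.

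Within the groups deposited on another scale, 0.64 kBq against 0.064 kBq gave 4 of 32 genes higher in liver, where 2.06% of all probes were called higher and 2.9% lower. In liver Usp18 read 9.33, 9.71 and 9.52 at 0.64 kBq, against 9.08, 8.78 and 8.34 at 0.064 kBq (change 0.79, adjusted p = 0.00546). In kidney medulla 1 of 33 rose, namely Oas2, where 0.314% of all probes were higher and 0.85% lower. In lung 1 of 36 fell, namely Samd9l, where 0.131% of all probes were lower and 0.0312% higher, and in spleen 1 of 36, Rsad2, where 0.882% were lower and 0.418% higher. None was called in kidney cortex, where 0.0531% of all probes were higher and as many lower. There 4 genes had an unadjusted p under 0.05 by limma, a count with no share of all probes to set it against. Array 1 of the 0.64 kBq group stood apart, as given above.

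The change at 14 kBq was then compared among the 5 tissues in a fit of all 90 arrays. By the F test of limma, 0 of 36 genes differed among tissues after adjustment, where 3.61% of 18463 probes did. No share of all probes at an unadjusted p under 0.05 was taken, and 3 genes met that threshold. These were Isg15 (adjusted p = 0.0836), Eif2ak2 (0.224) and Irf1 (0.24). Oas1g had an adjusted p of 0.473 in this test, but its probe was detected on 0 of 3 arrays at 14 kBq in lung, spleen and both kidney regions and on 1 of 3 in liver, so the size of its change cannot be compared among tissues. A p that misses the threshold does not show that the tissues were alike. Set against the mean of the other 4 tissues, Isg15 in spleen was the 1 gene called lower of 36, where 1.32% of all probes were lower and 1.76% higher. No gene was called in the same contrast of lung, where 0.422% of all probes were higher and 0.552% lower, of liver (0.72% and 0.834%), of kidney cortex (0.282% and 0.255%) or of kidney medulla (0.0758% and 0.217%). Its change at 14 kBq was -1.03 in spleen, against 0.32 in lung, -0.31 in liver, -0.33 in kidney cortex and -0.27 in kidney medulla.

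Other genes of the pathway are set here beside the shares of all probes called. Of 10 interferon ligand genes listed, 3 or fewer were tested in a tissue, and none was called. Ifnar2, a chain of the type I receptor, was not called in any comparison with 0 kBq, with changes from -0.60 in kidney medulla at 42 kBq to 0.56 in liver at 1.8 kBq, while Ifnar1 was not analysed here. In kidney medulla at 1.8 kBq, where 13.4% of all probes were called higher and 13.3% lower, 5 of 8 receptor and kinase genes rose and 1 fell. They included Socs3, an inhibitor of cytokine receptors, at 1.64 (adjusted p = 3.7e-07), and Ifngr2, a chain of the interferon gamma receptor, at 1.43 (1.47e-05), while the kinase Jak2 changed by -0.78. Of 11 tested genes that lead to interferon production, 2 rose and 2 fell in kidney medulla, a share near that of all probes, among them Mavs, the mitochondrial adaptor of RNA sensing, at -0.34. Of 24 other interferon-induced genes 7 rose in kidney medulla at 1.8 kBq, among them Tor3a at 0.94. In that comparison proximal tubule markers averaged 11.58 to 11.61 at 1.8 kBq, against 12.05 to 12.11 at 0 kBq, with 3 of 5 called lower, and neutrophil markers 7.09 to 7.13, against 6.07 to 6.17, and their part was not tested.

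In kidney cortex at 1.8 kBq, where 1.5% of all probes were called higher and 0.498% lower, 2 of 9 receptor and kinase genes rose, Stat3 (0.98, adjusted p = 0.00427) and Socs3 (0.92, 0.0255). Proximal tubule markers averaged 10.98 to 11.26 at 1.8 kBq there, against 11.57 to 11.83 at 0 kBq, and their part was not tested. In spleen at 1.8 kBq, 3 of 29 other interferon-induced genes fell, namely Sp100 (-0.73), Adar (-0.70) and Helz2 (-0.50), and none rose, where 1.37% of all probes were called lower and 1.44% higher. Gbp7 rose at 42 kBq in liver (0.89) and in kidney cortex (0.88), the single gene called of 23 tested in each, where 1.76% and 1.36% of all probes were called higher. Cxcl10, a T cell chemokine, read at least 1.74-fold lower in liver at 14 kBq and was not well above background there, and it changed by -1.39 in lung at 14 kBq. The 2 tested interferon gamma chemokines averaged 5.45 to 5.52 in lung at 14 kBq, against 7.65 to 7.90 at 0 kBq. They were also lower at 1.8 kBq, at 6.32 to 6.73, and at 42 kBq, at 6.21 to 6.42.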

How the data were processed

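Total RNA from fresh-frozen Balb/c mouse tissue was hybridised to Illumina single-colour bead arrays, per the labels. The deposited table holds unnormalised probe intensity values with a detection p-value for each probe and array, per the file headers. A second deposited table holds the authors' processed intensity values of the same arrays, whose normalisation is not given in the sources used here. The columns of 90 arrays were grouped by tissue and injected activity from the labels. The deposited processed values lay on a grid of 1/80 on 60 arrays (0, 1.8, 14 and 42 kBq) and of 1/33 on 30 arrays (0.064 and 0.64 kBq), so no comparison crosses these sets.

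With limma 3.58.1 in R 4.3.3, intensities were background-corrected by normexp from the detection p-values (offset 16), quantile-normalised within a tissue and put on the log2 scale. Probes with a detection p under 0.05 on 3 or more of 18 arrays were tested. Each tissue was fitted with 1 mean per group over its 18 arrays, with an intensity trend in eBayes, and p-values were two-sided and adjusted by Benjamini-Hochberg over all probes of a contrast. The change at 14 kBq was compared among tissues over all 90 arrays normalised together (18463 probes). The limma steps were tested on simulated data. Genes were named from the platform annotation, in which 23978 of 25697 probes had 1 gene symbol. Each of those 60 arrays had 11229 to 14456 probes detected and each of the other 30 had 11376 to 13956, and the number of arrays limits the precision.

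The genes, lists and tests were chosen with earlier results of these data known. Values are given for genes called against 0 kBq (up to 10 per comparison), for those the F test called, and for Oas1g, Isg15, Ifit1, Ifit3, Irf7, Stat2, Usp18 and Rsad2 whatever their values. Of the other lists at most 4 called genes per comparison are named, plus Ifnar1 and Ifnar2, and a further gene of the naming rule is not reported here. Genes named from the comparisons between activities were chosen after their values were seen. Alternatives were 12 arrays per tissue, the authors' processed values, other background, scaling, filter, probe and variance choices, a replicate block, and leaving out each array in turn.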

Additional observations from a re-analysis of the deposited data

Results flagged for a closer look

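The change of Isg15 at 14 kBq against 0 kBq was lower in spleen than the mean change of the other 4 tissues by -0.88 ± 0.26 (log2, SE), with an adjusted p of 0.043 over all probes by limma. This difference between tissues was tested as a contrast in the fit of all 90 arrays. The change was below 0 in spleen, liver, kidney cortex and kidney medulla and above 0 in lung. Leaving out each array of the 0 and 14 kBq groups in turn kept the difference between -0.93 and -0.83. That range describes the size of the difference and not whether it passed. Within spleen, the call of Isg15 at 14 kBq was lost in each of the 6 fits that left out 1 array (adjusted p 0.0551 to 0.0752, limma). The exocrine pancreas markers of the spleen arrays, given with the results, moved with this comparison, and their part was not tested.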

How the results depend on the processing

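For 63 called changes of single genes, 560 refits under an alternative that left all compared arrays in gave 480 calls in the same direction, 79 lost calls and 1 reversal, Oasl2 in kidney medulla at 14 kBq against 1.8 kBq by the mean of all its tested probes (0.10 on the log2 scale). Against 0 kBq, the genes called in kidney cortex (3) became 5 without background correction, 1 without a filter and 20 without the 0.064 and 0.64 kBq arrays. Kidney medulla (9) became 4 by the mean of probes and 17 without those arrays. Liver (5) became 3 without the intensity trend and 19 without those arrays. Lung (1) became 0 by the mean of probes, without background correction, without the trend and with the authors' processed values, and 9 without those arrays. Spleen (6) became 21 without those arrays. Between activities, kidney cortex (5) became 8 by the mean of probes, without background correction and with the authors' values, 3 without a filter, 1 without the trend and 18 without those arrays. Kidney medulla (13) became 8 by the mean of probes and 21 without those arrays, liver (5) 2 without the trend and 18 without those arrays. Lung (4) became 2 without background correction or trend and 11 without those arrays, and spleen (5) became 3 with 75th percentile scaling or the authors' values and 16 without those arrays. At 0.64 kBq against 0.064 kBq, liver (4) became 2 without the trend, lung (1) became 0 with percentile scaling, no filter or no trend, and spleen (1) became 0 with percentile scaling or no trend and 2 without background correction or with the authors' values. The F test (0) became 1 without background correction or with the authors' values and 6 without those arrays. The cause was not tested.

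Leaving out 1 array at a time gave 0 to 7 calls against 0 kBq in kidney cortex, 6 to 10 in kidney medulla, 0 to 9 in liver, 0 to 1 in lung and 2 to 7 in spleen. Between activities it gave 0 to 9 in kidney cortex, 7 to 16 in kidney medulla, 1 to 9 in liver, 1 to 7 in lung and 3 to 5 in spleen. These ranges also count the fit without array 1 of the 0.64 kBq group, which was chosen after seeing the data. Where a compared array was left out, comparisons that did not use it kept their count from the main fit. At 0.64 kBq against 0.064 kBq, leaving out 1 array gave 0 to 2 in kidney cortex, 1 to 10 in kidney medulla, 1 to 12 in liver, 0 to 1 in lung and 0 to 6 in spleen.

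The labels do not say what a replicate number stands for, and same-numbered arrays did not deviate together in every pair (correlation over 0.1 in 2 of 9 pairs in lung and 8 of 9 in spleen). With the replicate block, calls against 0 kBq numbered 4 in kidney cortex, 10 in kidney medulla, 5 in liver, 1 in lung and 5 in spleen. An alternative chosen after seeing the data left out array 1 of the 0.64 kBq group, with 5 genes called in spleen and 8 in kidney medulla at 1.8 kBq, and 5 each in liver and kidney cortex at 42 kBq. Probes near background give only bounds, as for Oas1g at 14 kBq.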
